A study of Mus musculus with 6 samples.

Results

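The genes described here make up the antioxidant programme of the transcription factor NRF2 together with the enzymes that use glutathione, thioredoxin and NADPH to remove peroxides. They were chosen by name: every probe on the array whose platform annotation gave the symbol of 1 of 40 genes. Probes carried 36 of the 40 symbols, in 73 probes of the 45281 on the array. Signals of Gsr, Prdx5, Prdx6 and G6pdx are not analysed here. A probe was tested if its detection p-value, which compares it with negative-control probes, was under 0.05 on at least 2 arrays. This filter kept 49 of the 73 probes and 33 of the 36 genes. The other 3 genes were dim: Gclc was detected on 1 array, and Pgd and Me1 on 0.

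Whole spleens were taken from 28-day-old mice of the outbred ICR stock. Each mouse had been given 1 injection of 200 µL under the skin 24 h earlier, with or without cadmium in the saline. The groups were saline alone, cadmium chloride (CdCl2) at 5 µmol per kg body weight, and CdCl2 at 10 µmol/kg, each with 2 Illumina bead arrays. Group sizes of 7 to 8 mice are stated, but not how many mice an array stands for, so p-values measure only the spread between arrays, which may be technical. In whole spleen, fewer cells of a type and less RNA per cell cannot be told apart.

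NRF2, encoded by Nfe2l2, is held in the cytoplasm and marked for degradation by KEAP1, whose reactive cysteines are modified by oxidants and by metals such as cadmium. Freed NRF2 enters the nucleus and switches on genes that make glutathione, reduce quinones, recycle thioredoxin and supply NADPH. Glutathione binds cadmium directly, and peroxiredoxins, glutathione peroxidases and catalase break down peroxides. The spleen holds many red cells and red cell precursors, which contain much of several of these enzymes.

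The 6 arrays differed from each other before any dose was compared. Pancreatic acinar genes, which mark an organ beside the spleen, averaged a log2 signal of 4.77 on the first saline array, and 4.97 on the first array at 10 µmol/kg. On the other 4 arrays they were between 11.30 and 12.68. All 26 acinar genes were detected on those 4, against 7 and 11 on the dim arrays. Spleen markers were present throughout, with all 18 erythroid, 18 macrophage and monocyte, 14 neutrophil and 9 megakaryocyte genes tested detected on every array, and at least 10 of 11 B cell and 9 of 10 T cell genes. Mean erythroid log2 signals ran from 10.52 on saline array 1 to 11.42 on array 1 at 5 µmol/kg. All 6 arrays had been put on 1 scale before deposit, with a top value of 26609.

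Member levels also differed between arrays of 1 dose. Saline array 1 was the lowest of the 6 for 19 of the 33 members, and over all 13559 genes and unnamed probes tested it was the lowest for 22.9%. The median member lay 0.31 log2 below its own mean there (−0.31) and 0.12 below it on array 1 at 10 µmol/kg (−0.12), the other array with little acinar signal. It was 0.19 and 0.12 above its mean on the arrays at 5 µmol/kg, 0.14 above it on saline array 2 and 0.02 above it on array 2 at 10 µmol/kg. Those 2 dim arrays were the lowest pair for 12 members and for 17.8% of all genes. The 12 were Keap1, Gclm, Nqo1, Prdx4, Cat, Sod1, Sod2, Gsta3, Gstm1, Gstm5, Gsto1 and Mgst1. The part of acinar tissue in these levels was not tested beyond the fits given below.

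**Figure D1:**
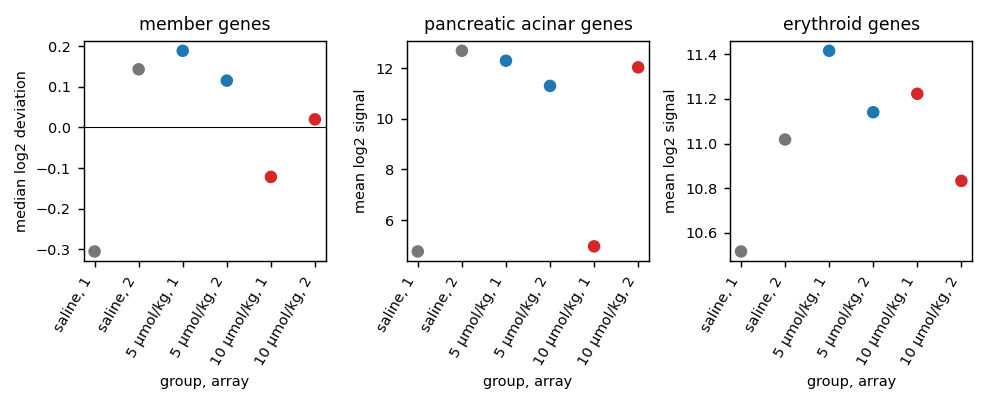
Each point is 1 array, in the order saline, 5 and 10 µmol/kg CdCl2, grey, blue and red. Left, the median over 33 member genes of the log2 signal minus that gene's mean over the 6 arrays. Middle and right, the mean log2 signal of 26 pancreatic acinar and 18 erythroid genes. Saline array 1 is the lowest in all 3 panels.

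**Figure D2:**
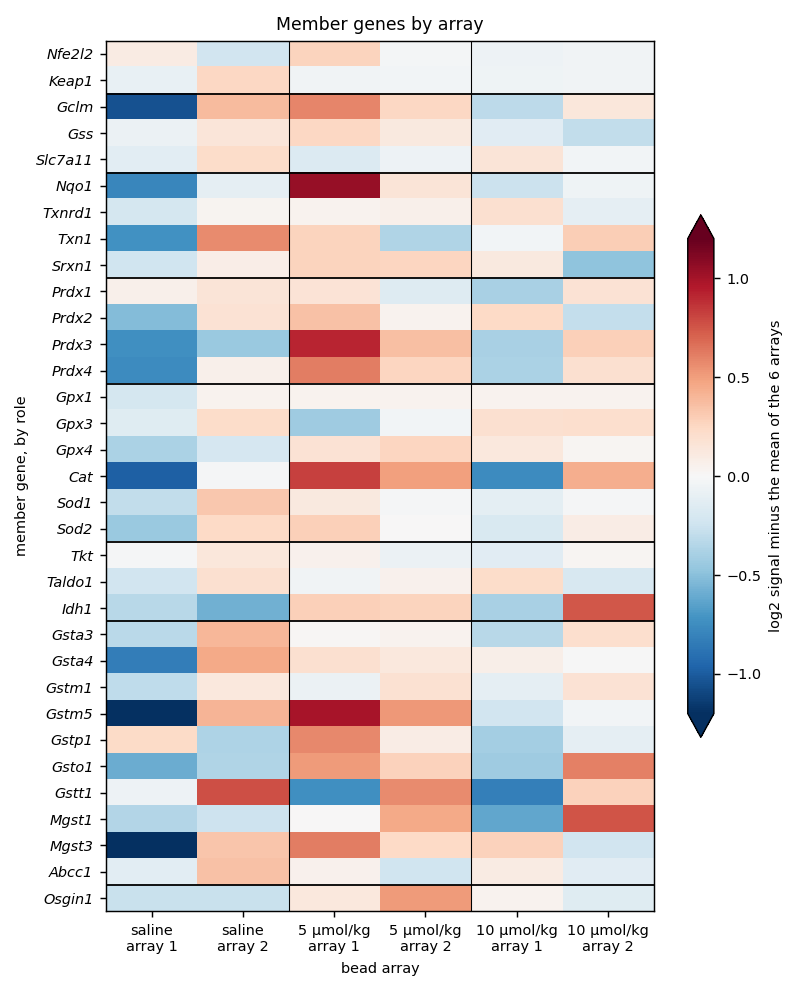
Colour gives the log2 signal of each of the 33 tested member genes on each array, minus that gene's mean over the 6 arrays; the scale ends at ±1.2. Black lines part the roles, from regulators at the top through glutathione synthesis, reductases and thioredoxin, peroxiredoxins, peroxidases with catalase and dismutases, NADPH supply, and transferases with export, to Osgin1. The column of saline array 1 is mostly blue and the first column at 5 µmol/kg mostly red.

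The lower dose was set against saline to ask which antioxidant genes answered 5 µmol/kg. No member passed the test, and 0 of the 18960 probes did (0%; limma's moderated test, smallest adjusted p = 0.492). The members as a list lay higher: 25 of 33 were above saline with a median log2 difference of 0.25, against 48.7% of all genes and a median of −0.01. The 25 include Gpx1 (0.13), whose response cannot be read because it lay at the top of the scale. In the same comparison the acinar genes had a median difference of 3.35 (26 of 26 higher), the erythroid genes 0.36, the neutrophil genes 0.35 and the B cell genes −0.52. With the acinar level as a covariate 23 of 33 members were above saline, with a median of 0.15, against 45.9% of all genes. The part of the other cell types was not tested. The largest positive differences, between 0.78 and 1.38, were those of the peroxiredoxins Prdx3 and Prdx4, catalase (Cat), the quinone reductase Nqo1 and the transferases Gsto1, Mgst3 and Gstm5. Other genes of these classes were below saline by their brightest probes, with −0.10 for Prdx1 and −0.44 for Gstt1. Of 12 members with several tested probes, 5 had a probe of the opposite sign in this comparison, Prdx1 among them. At an unadjusted p under 0.05 there were 3 members higher (Prdx3, Nqo1 and Cat) and 0 lower, where 4.47% of all genes were higher and 4.71% lower. Which genes these were depended on the settings: Cat was no longer among them with floored signals or without the quantile step, and Osgin1 was among them with floored signals. The arrays of the groups did not overlap for 12 members, all higher at 5 µmol/kg, where 21.8% of all genes did not overlap in that direction and 25.3% in the other. Leaving out saline array 1 put 18 of 33 above saline, with a median of 0.02 (43.7% of all genes were then higher). Leaving out saline array 2 put 30 above it, with a median of 0.50 (53.2% of all genes).

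The higher dose was set against saline in the same way. Again 0 of 18960 probes passed (0%; smallest adjusted p = 0.0644 in limma's moderated test), and every member had an adjusted p of 1. Of 33 members, 23 were above saline, with a median log2 difference of 0.13, against 46.9% and −0.02 over all genes. Gpx1 is again counted among those above saline. Cell type lists also shifted, with median differences of 0.40 for macrophage and monocyte, 0.43 for megakaryocyte and 0.26 for neutrophil genes. The medians were 0.16 for T cell, 0.15 for erythroid, −0.31 for B cell and −0.26 for acinar genes. The part of these cell types was not tested. Among members, the largest positive differences were 0.63 for Idh1, 0.57 for Gsto1 and 0.54 for Prdx3. The largest negative one was −0.63 for Gstt1. No member reached an unadjusted p under 0.05, where 0.944% of all genes were higher and 0.612% lower. The groups did not overlap for 3 members above saline (Prdx3, Gpx4 and Osgin1) and 1 below (Gss), against 11% and 11.6% of all genes. On another Gss probe the groups did not overlap in the opposite direction. Leaving out saline array 1 put 9 of 33 above saline, with a median of −0.18 (46.4% of all genes were then higher). Leaving out saline array 2 put 27 above it, with a median of 0.34 (52.6% of all genes). The first arrays of both groups, poor in acinar RNA, gave a median of 0.26, and the second arrays, rich in it, gave −0.14; these set 1 array against 1 and were not tested.

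Comparing the doses asked whether the members answered 10 µmol/kg differently from 5 µmol/kg. There, 28 of 33 members were counted as lower at 10 µmol/kg, with a median log2 difference of −0.16. Over all genes the median was 0.01 and 50.8% were higher. The 28 include Gpx1, which read 26609 on every cadmium array, a difference of 0. No member passed (smallest adjusted p = 0.98 in limma's moderated test), and 0 had an unadjusted p under 0.05, against 0.465% of all genes higher and 0.457% lower. The 1 probe of 18960 that passed (0.00527%) belongs to Tmem14c, which is not a member. Groups did not overlap for 15 members lower and 2 higher at 10 µmol/kg, where 15.7% and 15.2% of all genes did. With the acinar level as a covariate, 17 of 33 members were higher at 10 µmol/kg, against 52.6% of all genes, and the member median was 0.02. This comparison shares the arrays at 5 µmol/kg with the first one, so the 2 lists of differences are not independent.

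**Figure D3:**
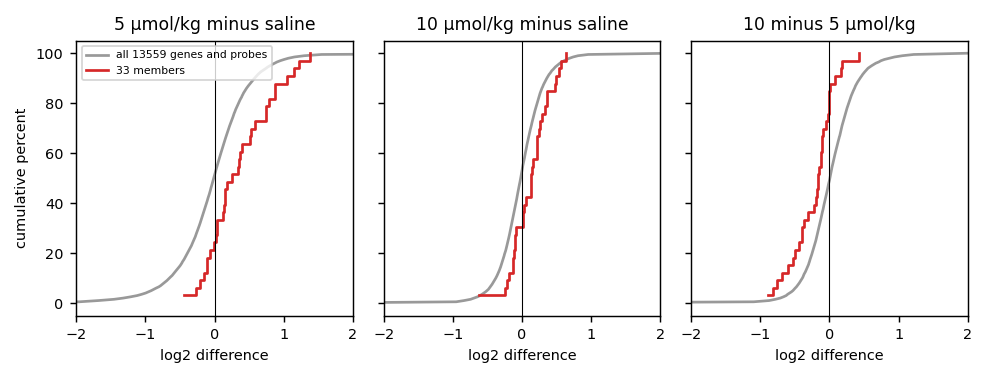
Cumulative percent of log2 differences, from limma's fit, for the 33 member genes (red steps) and all 13559 genes and unnamed probes (grey line) in the 3 comparisons; the axis shows −2 to 2. The member line lies to the right of the grey line in most of its range in the first panel, with a median of 0.25, and to the left in the third, with a median of −0.16.

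The regulators had small differences, with intervals that include 0. Nfe2l2 read 39.6 and 28.2 on the saline arrays, 46.2 and 34.9 at 5 µmol/kg, and 33.7 and 34.3 at 10 µmol/kg (deposited signal, array 1 and array 2). The saline arrays spanned both values at 10 µmol/kg and 1 of those at 5 µmol/kg. Its log2 difference was 0.18 ± 0.25 (SE) at 5 and 0.01 ± 0.25 at 10 µmol/kg against saline, with 95% intervals of −0.42 to 0.78 and −0.59 to 0.61. Keap1 read 349 and 444 in saline, 361 and 364 at 5 µmol/kg and 358 and 361 at 10 µmol/kg by its brightest probe. All 4 cadmium arrays lay between the saline arrays, and the differences were −0.12 ± 0.24 and −0.13 ± 0.24. Of 3 other Keap1 probes tested, 2 had the opposite sign at 5 µmol/kg. NRF2 activity is set largely by protein stability, which these arrays do not measure.

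NRF2 binds antioxidant response elements, and the core letters TGACNNNGC were searched on both strands from 250 bases before to 50 after each gene's start in RefSeq (GRCm38.p6). Of the members, 35 had such windows, and 12 of them (34.3%) held the letters in at least 1 window, against 14.0% of all 27025 genes. By windows it was 12 of 45 (26.7%) and 12.4% of 32851. Of the 12 genes, Pgd, Me1 and G6pdx are not among the tested members. The members were chosen by name as genes of this programme, so the shares say nothing about the response on these arrays. The matches in members that were tested and that lie before the start are printed below, on the gene's own strand, so that the letters can be read beside the values; capitals mark the match. Those of Gclm, Txnrd1, Prdx1, Sod1 and Mgst1 are the reverse complement of the core.
Nfe2l2, chr2:75704884-75704913, − strand: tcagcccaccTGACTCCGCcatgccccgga
Gclm, chr3:122245412-122245442, + strand: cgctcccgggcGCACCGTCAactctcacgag
Txnrd1, chr10:82859103-82859133, + strand: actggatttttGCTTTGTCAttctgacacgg
Prdx1, chr4:116685455-116685485, + strand: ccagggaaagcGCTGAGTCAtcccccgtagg
Sod1, chr16:90220695-90220725, + strand: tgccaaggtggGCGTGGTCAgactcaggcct
Gsta3, chr1:21240453-21240483, + strand: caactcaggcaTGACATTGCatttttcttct
Gstm5, chr3:107895801-107895831, + strand: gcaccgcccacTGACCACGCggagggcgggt
Mgst1, chr6:138140460-138140490, + strand: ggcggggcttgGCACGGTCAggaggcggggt
Among tested members the 9 with a match (these 8 and Srxn1, where it follows the start) had a median log2 difference at 5 µmol/kg of 0.18, and the 22 with a window but no match had 0.31. For the higher dose against saline the medians were 0.01 and 0.15. A match is a run of letters and not a measured binding site, and no match says only that the letters are not in the window.

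Glutathione is made by glutamate-cysteine ligase, whose modifier subunit is Gclm, and by the synthetase Gss, from cysteine that the transporter Slc7a11 brings in as cystine. Gclm read 472 and 1289.6 in saline, 1494 and 1175 at 5 µmol/kg and 792 and 1089.9 at 10 µmol/kg. Its saline arrays were far apart, so the difference of 0.75 ± 0.47 at 5 µmol/kg lay within their spread (1.68-fold, adjusted p = 0.564 in limma's fit). It was 0.04 without saline array 1 and 1.46 without saline array 2. The difference at 10 µmol/kg was 0.24 ± 0.47, and −0.47 once saline array 1 was left out. Gss was dim, at 12.4 and 17.3 in saline, 19.8 and 16.6 at 5 µmol/kg and 10.7 and 6.86 at 10 µmol/kg, the last below its detection limit. Its differences were 0.15 ± 0.24 and −0.25 ± 0.24 from saline, and 1 of 2 other probes tested had the opposite sign at 10 µmol/kg. That probe was not detected on either saline array and read 13.9 and 18.0 at 10 µmol/kg, at least 1.23-fold higher than in saline. The remaining probe gave −0.09 there, so the Gss probes disagreed. Slc7a11 read 13.7 and 22.1 in saline, 12.9 and 15.2 at 5 µmol/kg and 20.5 and 15.9 at 10 µmol/kg, near the detection limits of 7.56 to 10.6. A second Slc7a11 probe read 37.0 and 10.96 in saline and 14.7 and 24.99 at 5 µmol/kg, and was not detected on either array at 10 µmol/kg, which makes it at least 1.43-fold lower there than in saline. The brightest probe differed from saline by 0.02 ± 0.25 at that dose, so the probes disagreed. Gclc, the catalytic subunit of the ligase, had a single probe that was above background only on array 1 at 10 µmol/kg, at 10.5.

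Among the reductases, Nqo1, which reduces quinones and is a classical NRF2 target, read 24.0 and 47.6 in saline, 125 and 60.03 at 5 µmol/kg and 41.1 and 50.03 at 10 µmol/kg. Both arrays at 5 µmol/kg lay above both saline arrays, with array 1 far above the rest, while the values at 10 µmol/kg overlapped with saline. The 2 lowest Nqo1 values were those of the arrays with little acinar signal. The difference at 5 µmol/kg was 1.04 ± 0.38 (95% interval 0.14 to 1.95; 2.06-fold; adjusted p = 0.492 in limma's fit). Without array 1 at 5 µmol/kg it was 0.60, and without array 2 it was 1.49. The higher dose gave 0.29 ± 0.38 against saline and −0.76 ± 0.38 against 5 µmol/kg. Srxn1, which restores over-oxidised peroxiredoxins, read 11.8 and 19.4 in saline, 24.1 and 24.0 at 5 µmol/kg and 20.2 and 5.69 at 10 µmol/kg, the last not detected. Its difference was 0.34 ± 0.29 at 5 and −0.10 ± 0.29 at 10 µmol/kg. Thioredoxin reductase, Txnrd1, was detected on 4 of 6 arrays and read 4.24 and 10.5 in saline, 10.9 and 11.2 at 5 µmol/kg and 14.3 and 7.06 at 10 µmol/kg. Every value was within a few units of the detection limit, and the differences were 0.14 ± 0.24 and 0.13 ± 0.24. Thioredoxin itself, Txn1, read 14.5 and 58.8 in saline, 44.9 and 23.5 at 5 µmol/kg and 33.5 and 46.3 at 10 µmol/kg. All 4 cadmium values lay between the saline arrays.

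Peroxiredoxins reduce hydrogen peroxide with electrons from thioredoxin. The mitochondrial member Prdx3 read 324 and 401 in saline, 1049 and 712 at 5 µmol/kg and 418 and 676 at 10 µmol/kg. All 4 cadmium arrays lay above both saline arrays, array 1 at 10 µmol/kg only just. It had the smallest p of the members at 5 µmol/kg, with a difference of 1.23 ± 0.33 (95% interval 0.43 to 2.02; 2.34-fold; adjusted p = 0.492 in limma's fit). Leaving out 1 array at a time, this ran from 0.95 to 1.502, and with the acinar covariate it was 1.02. For the higher dose it was 0.54 ± 0.33, with 0.35 from the first array of each group alone and 0.73 from the second. Prdx4, the form of the endoplasmic reticulum, read 576 and 1031 in saline, 1517 and 1183 at 5 µmol/kg and 755 and 1131 at 10 µmol/kg. Only at 5 µmol/kg did both arrays exceed saline (difference 0.78 ± 0.36, adjusted p = 0.494 in limma's fit), and at 10 µmol/kg it was 0.26 ± 0.36. Prdx2, the abundant form of red cells, read 9343 and 15083 in saline, 17077 and 13768 at 5 µmol/kg and 15746 and 10962 at 10 µmol/kg, overlapping in each comparison. Its differences were 0.37 ± 0.33 and 0.15 ± 0.33 from saline, and at 10 µmol/kg its sign turned without saline array 1 (−0.20) and without array 1 at 10 µmol/kg (−0.11). Erythroid genes had median differences of 0.36 and 0.15 in the same comparisons, and their part in the Prdx2 values was not tested. Prdx1, a cytosolic form, read 1884 and 2005 in saline, 2018 and 1619.9 at 5 µmol/kg and 1374 and 2036 at 10 µmol/kg. Its differences were −0.10 ± 0.28 and −0.21 ± 0.28. A second Prdx1 probe, detected on 2 of 6 arrays, gave 0.16 and −0.18.

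Glutathione peroxidases reduce peroxides with glutathione. Gpx1, the cytosolic form that is abundant in red cells, held the top value of the scale, 26609, on 5 of 6 arrays, and read 22273 on saline array 1, where it ranked 7. Because the arrays had been given the same sorted values, a probe that ranks first reads 26609 whatever its brightness, so no response of Gpx1 can be read here. Gpx4, which reduces lipid peroxides in membranes, read 3035 and 3444 in saline, 4482 and 4747 at 5 µmol/kg and 4323 and 4016 at 10 µmol/kg. The groups did not overlap, and arrays of a group lay close together. The differences were 0.51 ± 0.23 at 5 µmol/kg (1.425-fold, adjusted p = 0.494 in limma's fit) and 0.36 ± 0.23 at 10 µmol/kg (1.29-fold, adjusted p = 1). With 1 array left out they ran from 0.42 to 0.60 and from 0.27 to 0.46. A second Gpx4 probe read 347 and 608 in saline, 903 and 735 at 5 µmol/kg and 586 and 733 at 10 µmol/kg, where 586 lay below saline array 2. The plasma form Gpx3 read 1481 and 1920.1 in saline, 1216 and 1601 at 5 µmol/kg and 1875 and 1890.2 at 10 µmol/kg. It was among the few members lower at 5 µmol/kg (−0.27 ± 0.27) and had the smallest p of those higher at 10 than at 5 µmol/kg (0.43 ± 0.27, adjusted p = 0.98 in limma's fit).

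Catalase, Cat, which splits hydrogen peroxide without a reducing cofactor, read 35.7 and 84.6 in saline, 163 and 126 at 5 µmol/kg and 44.1 and 121 at 10 µmol/kg. Both arrays at 5 µmol/kg exceeded saline, but across all 6 arrays the lowest values were those of the arrays with little acinar signal. The difference at 5 µmol/kg was 1.15 ± 0.48 (95% interval 0.0042 to 2.29; 2.22-fold; adjusted p = 0.492 in limma's fit). It was 0.67 without saline array 1 and 0.70 with the acinar covariate. The higher dose differed by 0.33 ± 0.48 from saline and −0.82 ± 0.48 from 5 µmol/kg, and without array 2 at 10 µmol/kg the difference from saline was −0.26. The superoxide dismutases, which turn superoxide into peroxide, had overlapping groups against saline on their brightest probes. Cytosolic Sod1 read 2334 and 3592 in saline, 3113 and 2850.3 at 5 µmol/kg and 2636 and 2846 at 10 µmol/kg. All 4 cadmium values were between the saline arrays. A second, dim Sod1 probe read 28.4 and 17.4 in saline and 11.8 and 9.23 at 5 µmol/kg, the last below detection. Those groups did not overlap (difference −0.50). Mitochondrial Sod2 read 528 and 859 in saline, 885 and 727 at 5 µmol/kg and 635 and 771 at 10 µmol/kg, with array 1 at 5 µmol/kg just above the saline range.

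**Figure D4:**
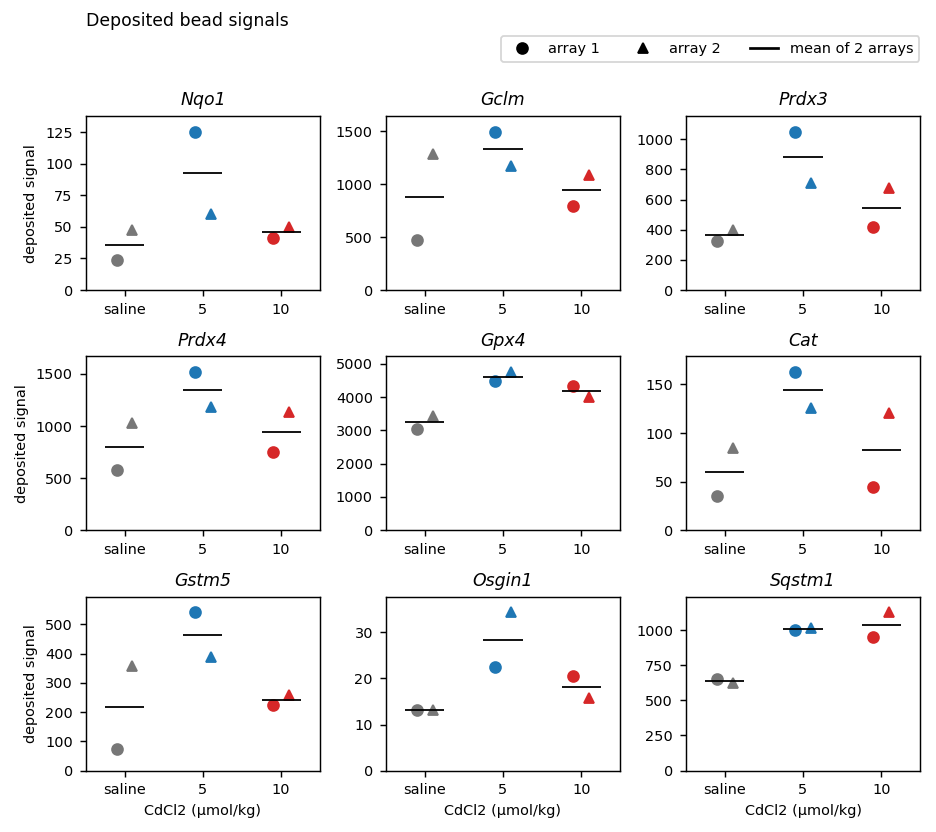
Deposited bead signal of 8 members and of Sqstm1, another NRF2 target, on every array (circle, array 1; triangle, array 2; line, mean of 2), with groups in the order saline, 5 and 10 µmol/kg CdCl2. Each axis starts at 0. For Prdx3, Gpx4, Osgin1 and Sqstm1 all 4 cadmium arrays lie above both saline arrays.

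NADPH for glutathione and thioredoxin comes from the pentose phosphate pathway and from NADP-linked dehydrogenases. Idh1, the cytosolic isocitrate dehydrogenase, read 93.0 and 76.3 in saline, 152 and 149.9 at 5 µmol/kg and 89.1 and 214 at 10 µmol/kg. At 5 µmol/kg its arrays agreed closely and lay above saline (0.74 ± 0.38, adjusted p = 0.514 in limma's fit). The higher dose had array 1 between the saline values and array 2 as the highest of the 6, so its difference of 0.63 ± 0.38 was −0.05 from the first array of each group alone and 1.32 from the second. Taldo1 and Tkt, the transaldolase and transketolase of the non-oxidative branch, differed from saline by −0.11 to 0.04 at the doses. Tkt read 852 to 1027 and Taldo1 3792 to 5202 over the 6 arrays, each with overlapping groups. A second Tkt probe, detected on 2 of 6 arrays, differed from saline by 0.13 and 0.11.

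Glutathione transferases join glutathione to reactive compounds. Gstm5, of the mu class, read 73.6 and 358 in saline, 541 and 388 at 5 µmol/kg and 223 and 259 at 10 µmol/kg. It had the largest difference of the members at 5 µmol/kg, 1.38 ± 0.62 (2.59-fold, adjusted p = 0.494 in limma's fit), and 0.34 without saline array 1. Gsto1, of the omega class, read 315 and 375 in saline, 700.3 and 590.2 at 5 µmol/kg and 357 and 745 at 10 µmol/kg. At 5 µmol/kg both arrays were well above saline (0.87 ± 0.37, adjusted p = 0.492 in limma's fit). Only array 2 was at 10 µmol/kg. Gstm5 and Gsto1 each had their 2 lowest values on the arrays with little acinar signal. Gstp1, the pi class form, read 1608 and 1051 in saline, 2038 and 1456 at 5 µmol/kg and 1024 and 1262 at 10 µmol/kg, and was lower at 10 than at 5 µmol/kg on every array (−0.59 ± 0.32, adjusted p = 0.98 in limma's fit). A second Gstp1 probe gave −0.58. Gstt1, of the theta class, read 74.6 and 145 in saline, 40.9 and 124 at 5 µmol/kg and 37.6 and 98.5 at 10 µmol/kg. Array 1 was far below array 2 in each group, a split larger than either difference from saline (−0.44 ± 0.56 and −0.63 ± 0.56). Near-identical copies exist for several of these transferases, and cross-reaction of their probes was not tested.

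The microsomal transferases Mgst1 and Mgst3 act in membranes. Mgst1 read 273 and 294 in saline, 352 and 489 at 5 µmol/kg and 223 and 604 at 10 µmol/kg. The gap between arrays was again widest at 10 µmol/kg. The 2 lowest Mgst1 values were on the arrays with little acinar signal. Mgst3 read 1196 and 3583 in saline, 4348 and 3345 at 5 µmol/kg and 3433 and 2424 at 10 µmol/kg. Only saline array 1 stood apart on this probe. It was also the lowest array on the second Mgst3 probe, and the differences at 5 µmol/kg were 0.87 and 1.198. The second probe read 330 and 1056 in saline, 1642 and 1160 at 5 µmol/kg and 937 and 757 at 10 µmol/kg. There, both arrays at 5 µmol/kg lay above all the others. Gsta3, Gsta4 and Gstm1 differed from saline by −0.10 to 0.35 at the doses, with overlapping groups. Abcc1, which exports glutathione conjugates, was detected on 2 of 6 arrays, 1 in saline and 1 at 10 µmol/kg. At 5 µmol/kg it has only a bound, at least 1.01-fold lower than in saline. It read 4.83 and 16.4 in saline, 9.41 and 0.905 at 5 µmol/kg and 10.6 and 4.46 at 10 µmol/kg, with overlapping groups, and its second tested probe had the opposite sign against saline. Osgin1, an oxidative stress-induced growth inhibitor, read 13.1 on both saline arrays, 22.5 and 34.3 at 5 µmol/kg and 20.5 and 15.8 at 10 µmol/kg. Its differences were 0.58 ± 0.25 (adjusted p = 0.492 in limma's fit) and 0.21 ± 0.25, from signals close to the detection limit.

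**Figure D5:**
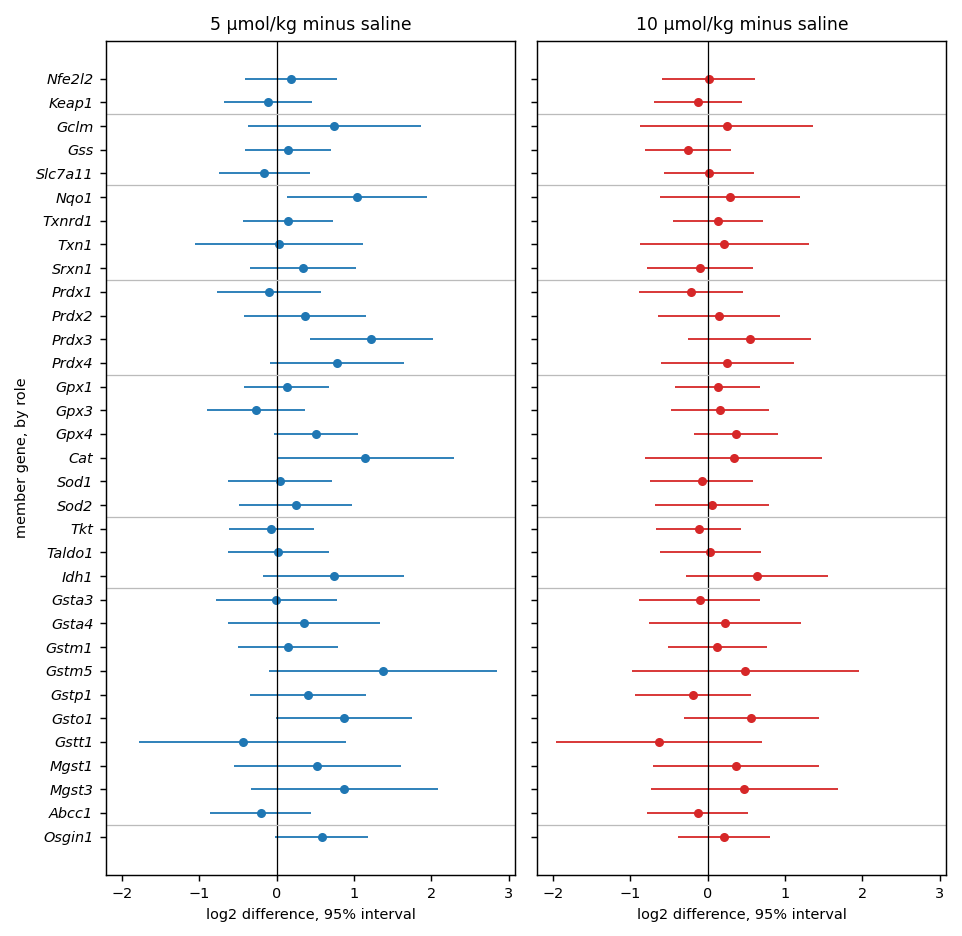
Points are log2 differences from saline in limma's fit over all 6 arrays, and lines their 95% intervals, for the 33 tested member genes by role, at 5 µmol/kg (left) and 10 µmol/kg (right). At 5 µmol/kg the intervals of Nqo1, Prdx3 and Cat lie above 0, that of Cat only just; at 10 µmol/kg every interval includes 0.

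Prdx3, Gpx4 and Osgin1 were the 3 of 33 members with all 4 cadmium arrays above both saline arrays, and 0 members had all 4 below. Over all genes the shares were 7.18% above and 7.55% below, so a count of 3 is near the background.

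Another 61 genes of the same pathways, none of them members, were counted in the same way, and 50 were tested. Of the 50, 34 were above saline at 5 µmol/kg (median 0.17), against 48.7% of all genes, and 32 at 10 µmol/kg (median 0.08), against 46.9%. Between the doses 30 of 50 were lower at 10 µmol/kg (median −0.05), where 50.8% of all genes were higher. At an unadjusted p under 0.05 there was 1 higher and 0 lower at 5 µmol/kg, where 4.47% and 4.71% of all genes were. The counts at 10 µmol/kg were 1 higher and 2 lower, against 0.944% and 0.612%, and between the doses 0 and 0. After adjustment 0 of the 50 passed in each comparison of limma's fit. The autophagy receptor Sqstm1 (p62), an NRF2 target that also binds KEAP1, read 654 and 622 in saline, 1003 and 1017 at 5 µmol/kg and 954 and 1127 at 10 µmol/kg. Both doses lay above saline on every array. The differences were 0.65 ± 0.23 (1.57-fold, adjusted p = 0.492 in limma's fit) and 0.69 ± 0.23 (1.61-fold, adjusted p = 1). With 1 array left out they ran from 0.61 to 0.69 and from 0.57 to 0.81. It was 1 of 4 of the 50 with all 4 cadmium arrays above saline, with Gstz1, Sod3 and Msrb1, and 3 had all 4 below, Bach1, Gstt3 and Mgst2. These counts are near the background of 7.18% and 7.55% of all genes, and the genes were named after their values were seen.

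Gstt3, a theta class transferase, read 38.0 and 42.9 in saline, 20.2 and 22.1 at 5 µmol/kg and 7.98 and 22.0 at 10 µmol/kg, the value of 7.98 being below detection. Its differences were −0.61 ± 0.27 and −0.86 ± 0.27 (adjusted p = 0.494 and 1 in limma's fit). Selenop, the selenium carrier of plasma, read 457 and 625 in saline, 1345 and 1285 at 5 µmol/kg and 586 and 2016 at 10 µmol/kg, so that the arrays at 10 µmol/kg lay on both sides of those at 5 µmol/kg. Array 1 at 10 µmol/kg was also within the saline range. That array and saline array 1, which had little acinar signal, gave the 2 lowest Selenop values. Selenop differed from saline by 1.27 ± 0.54 and 1.01 ± 0.54, and the second value was 0.13 without array 2 at 10 µmol/kg and 1.88 without array 1. Hmox1, haem oxygenase, read 371 and 486 in saline, 567 and 462 at 5 µmol/kg and 475 and 720.0 at 10 µmol/kg, with differences of 0.26 ± 0.30 and 0.45 ± 0.30. Fth1, the ferritin heavy chain, read 14364 and 18897 in saline, 18897 and 16185 at 5 µmol/kg and 17269.6 and 15373 at 10 µmol/kg, all 4 cadmium values within the saline range. Between the doses, the carbonyl reductase Cbr1 (−0.44 ± 0.25) and the thioredoxin inhibitor Txnip (0.50 ± 0.30) had the smallest p of these 50 genes (adjusted p = 0.98 for both in limma's fit).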

How the data were processed

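Spleen RNA of 3 groups of 2 samples, grouped by title, was measured on 6 Illumina bead arrays. The authors deposited an intensity per probe and array (linear mean bead signal, per the file headers) and a detection p-value. The table's name says that it is not normalized. However, it holds negative values, and once sorted, any 2 arrays match within 0.243, so background subtraction and quantile normalization came before deposit. Which software did this is not stated in the sources used here. The deposited series matrix held identical intensities for 45279 probes. Symbols came from the platform annotation.

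Intensities were passed through neqc (limma 3.58.1, R 4.3.3; normexp, offset 16, quantiles, log2), which understates the change of dim genes. Probes with detection p under 0.05 on at least 2 arrays were kept. One limma model with a mean per group was fitted to all 6 arrays (3 residual and 3.783 prior degrees of freedom), with Benjamini-Hochberg adjustment over 18960 probes and a threshold of 0.05. A gene was represented by its brightest tested probe, which gave 13559 genes and unnamed probes. With 2 arrays against 2, an exact permutation test cannot go below p = 0.333 and was not used. A group with no detected array has only a bound, from the detection limits of its arrays.

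The members and gene lists were chosen with earlier results of these data known. Signals on every array were given for the 3 members with the smallest p in each direction of each comparison, for Nfe2l2, Keap1, Nqo1, Gclc, Gclm, Txnrd1, Srxn1, Slc7a11, Prdx2 and Cat, and for probes at the top of the scale. Other members were given so after their values were seen. Among the other pathway genes the rule named Hmox1, Fth1 and the 2 genes with the smallest p in each comparison. The test was tried on simulated arrays. The number of arrays limits the precision.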

Additional observations from a re-analysis of the deposited data

How the results depend on the processing

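The spread between arrays was 0.31, the pooled SD within groups of the median member level. It was larger in size than the reported median differences themselves (0.25, 0.13 and −0.16). No member was called in any comparison under any of the settings tried, and their medians moved by less than that spread in each. Still, 2 medians changed sign: that at 10 µmol/kg against saline without saline array 1 (−0.18) or from the second arrays alone (−0.14), and that between the doses with the acinar level as a covariate (0.02). Without 1 array the median ran from 0.02 to 0.50 at 5 µmol/kg against saline, from −0.18 to 0.34 at 10 µmol/kg against saline and from −0.18 to −0.11 between the doses. The smallest and largest counts of members with an unadjusted p under 0.05 in those fits were 0 and 8 at 5 µmol/kg (without array 1 at that dose and without saline array 2), where 1.16% and 16.1% of all genes reached it. At 10 µmol/kg the largest was 4, without saline array 2 (3.38% of all genes) or without array 1 at that dose (8.26%). Between the doses it was also 4, without array 2 at 10 µmol/kg (9.48% of all genes). In the fits with all arrays of a comparison the count at 5 µmol/kg ran from 2 to 6. It was 3 in the fit reported above, where 4.47% of all genes were higher and 4.71% lower. With the acinar covariate it was 4, where 10.8% of all genes reached the threshold. Shares for the other fits are not given here, so the range cannot be read as a result about the members. Cat was lost from the count with floored signals, without the quantile step, with an offset of 50, with no filter and in both gene-level fits. Osgin1 joined it with floored signals, with no filter, with the mean of a gene's probes and with the acinar covariate. The 1 probe called between the doses was lost (0 called) with signals floored at 10, with an offset of 50, with no filter, in both gene-level fits, with the replicate block, and without any 1 array. At 10 µmol/kg against saline 1 probe was called, against 0, at an adjusted p under 0.1, with a detection p under 0.01 on at least 3 arrays, with a trend in the variance, with the acinar covariate and with the exchanged replicate block.

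The titles do not say what arrays of the same replicate number share. Across probes, rep 1 minus rep 2 correlated by 0.56 between 10 µmol/kg and saline. The correlation was −0.26 between 5 µmol/kg and saline and −0.13 between the doses. In saline and at 10 µmol/kg alike, rep 1 had little acinar signal and rep 2 had much. The part of this in the correlation was not tested. With the replicate number as a block, 0 members and 0 probes were called in each comparison. With the numbers at 5 µmol/kg exchanged, a fit chosen after seeing the data, 0, 1 and 1 probes were called in the 3 comparisons.

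Some single differences changed sign. With the mean of a gene's probes the values at 10 µmol/kg against saline were 0.068 for Gss, −0.30 for Slc7a11, 0.034 for Fth1 and −0.050 for Txnip, and between the doses −0.17 for Slc7a11 and 0.10 for Sod1. With the acinar covariate the values between the doses were 0.068 for Keap1, 0.048 for Sod1, 0.16 for Gsta4 and 0.20 for Selenop, and with floored signals 0.11 for Txnrd1. The causes were not tested. Leaving out 1 array, differences at 5 µmol/kg against saline ran from −0.44 to 0.029 for Abcc1, −0.11 to 0.28 for Fth1, −1.09 to 0.21 for Gstt1, −0.28 to 0.053 for Keap1 and −0.33 to 0.017 for Slc7a11. At 10 µmol/kg against saline they ran from −0.26 to 0.93 for Cat, −0.30 to 0.014 for Cbr1, −0.21 to 0.18 for Fth1, −0.47 to 0.95 for Gclm, −0.29 to 0.042 for Keap1 and −0.15 to 0.18 for Nfe2l2. In that comparison they also ran from −0.050 to 0.62 for Nqo1, −0.50 to 0.066 for Prdx1, −0.20 to 0.49 for Prdx2, −0.16 to 0.19 for Slc7a11, −0.40 to 0.20 for Srxn1, −0.073 to 0.19 for Txnip and −0.020 to 0.28 for Txnrd1. Between the doses they ran from −0.21 to 0.0097 for Fth1, −0.55 to 0.032 for Gstt3, −0.11 to 0.48 for Hmox1, −0.48 to 0.038 for Prdx2, −1.14 to 0.61 for Selenop, −0.081 to 0.16 for Sqstm1, −0.13 to 0.50 for Txn1 and −0.16 to 0.14 for Txnrd1. Values close to the detection limit, as for Txnrd1, Srxn1, Gss, Slc7a11 and Osgin1, limit what these probes can show.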

Other observations

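The probe that differed most between the doses is 1 of 3 tested for Tmem14c, a mitochondrial membrane protein needed for haem synthesis, and it was named after its values were seen. It was not detected on either array at 10 µmol/kg, and it read 1209 and 2666 in saline and 4190.2 and 2045 at 5 µmol/kg. It was at least 110.9-fold lower at 10 than at 5 µmol/kg (adjusted p = 0.0327 in limma's fit) and at least 68.3-fold lower than in saline (adjusted p = 0.0644). The other 2 Tmem14c probes read 981 to 1139 at 10 µmol/kg and differed from 5 µmol/kg by −1.29 and −0.86.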
